A study of Rattus norvegicus with 48 samples.

Results

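Rat miR-1224 (rno-miR-1224 in the table) and miR-361 (rno-miR-361) are microRNAs, short RNAs that guide Argonaute proteins to messenger RNAs and lower the protein made from them. They are 2 of 143 miRNAs in the table of rat liver values used here, to which all ranks refer, and the filter behind that table is not given in the sources used here. Both were selected on the difference between animals given AM21, an antisense oligonucleotide against miR-21, and their controls. Male Sprague-Dawley rats aged 8 to 14 weeks received, for 6 to 8 weeks, a diet with 36% of its calories as ethanol (EtOH) or a pair-fed carbohydrate diet (CHO) and underwent removal of 70% of the liver (partial hepatectomy, PHx). The study asked how ethanol feeding alters the miRNA response of the regenerating liver, and what inhibition of miR-21 does to it. Untreated animals of both diets were collected at 0, 6, 24, and 72 h. Further animals of both diets received AM21 at 7.5 mg/kg, first given 72 h before surgery and again after PHx, or 1 mL of saline, and were collected at 0 and 24 h. Each of the 16 groups held 3 animals, 48 in all.

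Most miRNAs are cut from a hairpin by Drosha and Dicer, but a mirtron is a whole short intron whose ends are set by splicing, and miR-1224 is a known example of this class. The seed, the bases near the 5′ end of a mature miRNA, does most of the pairing with a target. Antisense oligonucleotides with locked nucleic acids bind their miRNA tightly and can also bind RNAs that share a stretch of its sequence. miR-122 is made by hepatocytes and is the most abundant miRNA of the liver.

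In the RefSeq annotation of the rat genome build GRCr8, the hairpin of miR-1224 lies at chr11:93811291-93811375 on the minus strand, inside the protein-coding gene Vwa5b2 and on its strand. The hairpin begins with GU and ends with AG, the bases at the ends of an intron, and the mature miRNA begins at base 1 of the hairpin. The hairpin of miR-361 lies at chrX:82438463-82438532 on the minus strand, inside Chm and on its strand. The table names miR-361 and miR-21 without the arm of the hairpin, so both arms of miR-361 are given, with the seed (bases 2 to 8) in capitals.

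rno-miR-1224: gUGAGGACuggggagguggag

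rno-miR-361-5p: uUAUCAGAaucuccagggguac

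rno-miR-361-3p: cCCCCAGGugugauucugauucgu

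rno-miR-21-5p: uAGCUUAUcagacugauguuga

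The 3 member sequences have 3 different seeds, and 0 of the other miRNAs of the table with a matched sequence carry any of them. Of the 143 miRNAs, 124 could be matched to a mature sequence by name.

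The values are scaled counts on the log2 scale (log2 CPM) from the NanoString nCounter assay, in which a colour-coded probe is counted for every miRNA. The whole counts behind them were recovered, and totals per animal ran from 58168 to 267582 with a median of 160078. miR-1224 had 151 to 806 counts per animal (median 400), rank 33 of 143 by mean count. miR-361 had 48 to 185 counts (median 108), rank 63. Counting error alone gives an SD on the log2 scale of 0.072 for miR-1224 and 0.139 for miR-361 in the median animal, and of at most 0.117 and 0.208. The SD between the 3 animals of a group was above the counting SD in 15 of 16 groups for miR-1224 and in 12 of 16 for miR-361.

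The target of AM21 was read first, as a check of the labels. miR-21 was between 6.59 and 7.76 log2 CPM in the 12 AM21 animals, which is 15 to 32 counts. In the other 36 animals it was between 9.65 and 15.76. The lowest values among these came from EtOH-fed animals given saline at 0 h, whose replicates 1, 2, and 3 were at 11.12, 9.65, and 14.10. The lowest value of any other control animal was 12.97. Replicates 1 and 2 of that saline group thus had less miR-21 than every other control but more than every AM21 animal, and the tests that use the group, with AM21 minus controls at 0 h, were also run without them. Whether their saline label is right was not tested, and they count among the controls unless stated.

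Among CHO-fed animals at 0 h, miR-1224 was at 10.66, 11.22, and 10.86 log2 CPM in untreated, 10.42, 10.40, and 11.39 in saline, and 11.28, 11.51, and 11.22 in AM21 animals. Among CHO-fed animals at 24 h, it was at 11.21, 11.55, and 11.16 in untreated, 11.48, 11.19, and 11.45 in saline, and 12.06, 11.59, and 12.29 in AM21 animals. The 24 h AM21 animals all lay above their 6 controls. The gap from 11.55 to 11.59 was, however, smaller than the counting error of these animals (SD 0.0878 and 0.0627). At 0 h the saline animals alone ran from 10.40 to 11.39. Among EtOH-fed animals at 0 h, miR-1224 was at 11.06, 11.50, and 11.32 in untreated, 11.28, 11.40, and 11.16 in saline, and 11.34, 11.53, and 11.54 in AM21 animals. Among EtOH-fed animals at 24 h, it was at 11.40, 11.35, and 11.15 in untreated, 11.22, 11.55, and 11.16 in saline, and 11.34, 11.78, and 11.55 in AM21 animals. In the EtOH diet the AM21 values overlapped those of the controls at both times. In the remaining untreated animals miR-1224 was at 11.36, 11.30, and 11.35 (CHO, 6 h), 11.71, 11.73, and 11.19 (EtOH, 6 h), 11.48, 11.30, and 11.44 (CHO, 72 h), and 11.65, 11.62, and 11.33 (EtOH, 72 h).

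Ordered by group mean (± SD, n = 3), miR-1224 was highest in CHO-fed AM21 animals at 24 h (11.98 ± 0.36), followed by EtOH-fed AM21 animals at 24 h (11.56 ± 0.22). Next came EtOH-fed untreated animals at 6 h (11.55 ± 0.30) and 72 h (11.53 ± 0.18), EtOH-fed AM21 animals at 0 h (11.47 ± 0.11), and CHO-fed untreated animals at 72 h (11.40 ± 0.10). The middle of the order was tight. It ran from CHO-fed saline at 24 h (11.37 ± 0.16), CHO-fed AM21 at 0 h (11.34 ± 0.15), and CHO-fed untreated at 6 h (11.34 ± 0.03) to EtOH-fed saline at 24 h (11.31 ± 0.21), CHO-fed untreated at 24 h (11.31 ± 0.21), and EtOH-fed untreated at 24 h (11.30 ± 0.14). Below it lay EtOH-fed untreated (11.29 ± 0.22) and saline (11.28 ± 0.12) animals at 0 h, and last CHO-fed untreated (10.91 ± 0.29) and saline (10.74 ± 0.56) animals at 0 h. The group means spanned 1.24, rank 27 of 143 miRNAs, for which the median span was 0.996. At each of the 15 steps of this order the ranges of neighbouring groups overlapped.

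Among CHO-fed animals at 0 h, miR-361 was at 9.78, 9.58, and 9.46 log2 CPM in untreated, 9.82, 9.78, and 9.45 in saline, and 9.81, 9.67, and 9.51 in AM21 animals. Among CHO-fed animals at 24 h, it was at 9.85, 9.87, and 9.33 in untreated, 9.15, 9.82, and 9.14 in saline, and 8.84, 9.14, and 8.95 in AM21 animals. At 24 h the AM21 animals lay below all 6 controls, but the highest of them missed the lowest saline animal by less than the counting error. Among EtOH-fed animals at 0 h, miR-361 was at 9.62, 9.41, and 9.46 in untreated, 9.54, 9.73, and 9.30 in saline, and 9.31, 9.56, and 9.17 in AM21 animals. Among EtOH-fed animals at 24 h, it was at 9.34, 9.78, and 9.62 in untreated, 9.29, 9.59, and 9.43 in saline, and 9.12, 8.91, and 9.20 in AM21 animals. Here too the 24 h AM21 values lay under all 6 controls, and the gap from 9.20 to 9.29 was again smaller than the counting error of these animals (SD 0.145 and 0.144). In the remaining untreated animals miR-361 was at 9.57, 10.09, and 9.55 (CHO, 6 h), 9.04, 9.38, and 9.70 (EtOH, 6 h), 9.58, 9.999, and 9.91 (CHO, 72 h), and 9.62, 9.55, and 9.41 (EtOH, 72 h).

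By group mean, miR-361 was highest in CHO-fed untreated animals at 72 h (9.83 ± 0.22), 6 h (9.74 ± 0.30), and 24 h (9.68 ± 0.30). CHO-fed saline (9.68 ± 0.20), AM21 (9.66 ± 0.15), and untreated (9.60 ± 0.16) animals at 0 h followed. All 6 groups at the top were thus CHO-fed. Then came EtOH-fed untreated animals at 24 h (9.58 ± 0.23) and 72 h (9.53 ± 0.11), and EtOH-fed saline (9.52 ± 0.22) and untreated (9.49 ± 0.11) animals at 0 h. Under these lay EtOH-fed saline at 24 h (9.43 ± 0.15), EtOH-fed untreated at 6 h (9.37 ± 0.33), CHO-fed saline at 24 h (9.37 ± 0.39), and EtOH-fed AM21 at 0 h (9.34 ± 0.20). The lowest groups were the AM21 animals at 24 h, EtOH-fed (9.08 ± 0.15) and CHO-fed (8.98 ± 0.15). The span was 0.852, rank 101 of 143, and neighbouring groups overlapped at each of the 15 steps.

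**Figure D1:**
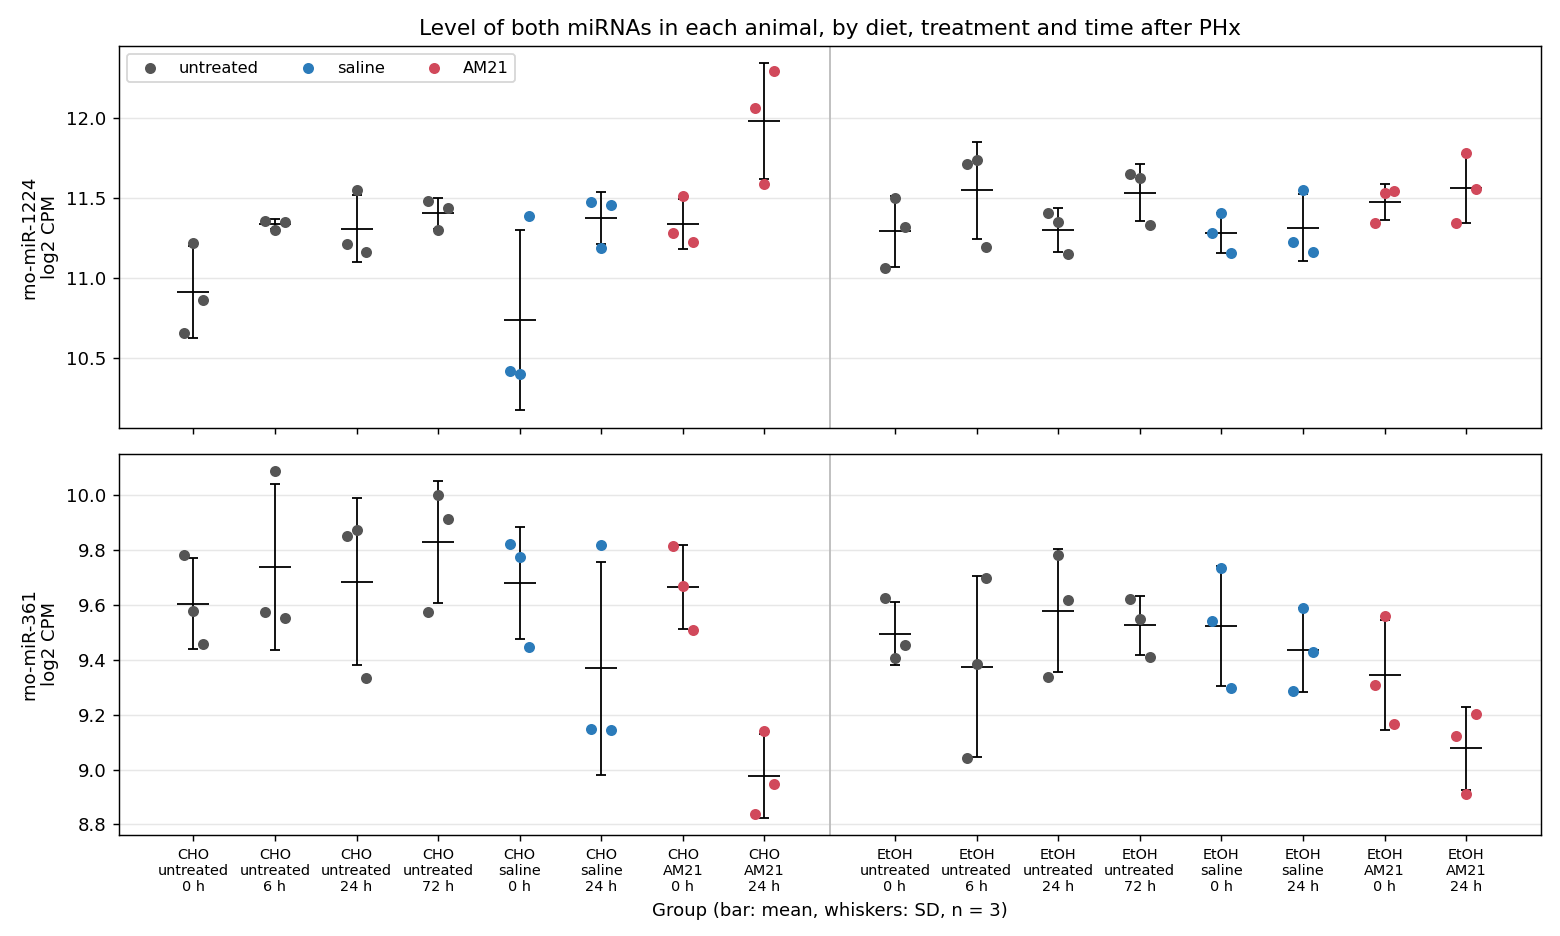
Level (log2 CPM, vertical axes) of miR-1224 (upper panel) and miR-361 (lower panel) in each of the 48 animals by diet, treatment, and hours after PHx; points are animals, bars are group means, and whiskers are SDs (n = 3). CHO-fed AM21 animals at 24 h have the highest mean miR-1224 (11.98) and the lowest mean miR-361 (8.98).

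Because the members were selected on it, the difference between AM21 animals and controls is a description, and no test was made of it. For miR-1224 in CHO-fed animals at 0 h, AM21 minus saline was 0.60 and AM21 minus untreated was 0.43 on the log2 scale, a mean of 0.51 with a pooled SD of 0.38. In CHO-fed animals at 24 h the differences were 0.61 and 0.67, a mean of 0.64 (1.56-fold) with a pooled SD of 0.26. That mean was the highest of the 143 miRNAs in CHO-fed animals at 24 h. In EtOH-fed animals the mean over both controls was 0.19 at 0 h, with 2 of 3 AM21 animals above all controls, and 0.25 at 24 h, again with 2 of 3. When 1 animal was left out these were 0.13 to 0.25 and 0.14 to 0.36. Over the 4 combinations of diet and time the mean was 0.40 (1.32-fold), rank 2 of 143 from the highest. The mean difference was larger than the pooled SD in all 4 combinations (pooled SD 0.16 and 0.19 in EtOH-fed animals), but only in CHO-fed animals at 24 h did all 3 AM21 animals exceed the controls.

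For miR-361 in CHO-fed animals at 0 h, AM21 minus the mean of both controls was 0.02, and 0 of 3 AM21 animals lay below all controls. In CHO-fed animals at 24 h, AM21 minus saline was -0.39 and AM21 minus untreated was -0.71, a mean of -0.55 (0.683-fold) with a pooled SD of 0.30. In EtOH-fed animals at 0 h the mean difference was -0.16, less than the pooled SD of 0.18, with 1 of 3 AM21 animals below all controls. This value hung on single animals, at -0.27 to -0.08 when 1 was left out and -0.05 without both saline animals of low miR-21, and the averages below include it. In EtOH-fed animals at 24 h AM21 minus saline was -0.36 and AM21 minus untreated was -0.50, a mean of -0.43 (0.743-fold) with a pooled SD of 0.18. Averaged over diets the difference was -0.07 at 0 h and -0.49 at 24 h, so the low values lay at 24 h. Over the 4 combinations it was -0.28 (0.823-fold), rank 13 of 143 from the lowest, and whether 0 and 24 h differ in it was not tested. The second dose of AM21 was given after PHx, so time and that dose cannot be told apart between 0 and 24 h.

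Counting all miRNAs by the same rule gives the background for such separation. At 24 h in CHO-fed animals, 3.50% of the 143 miRNAs had all 3 AM21 animals above all 6 controls, and 2.80% had them below. At 24 h in EtOH-fed animals these shares were 0% above and 2.80% below. At 0 h the shares were 1.40% above and 1.40% below in CHO-fed animals, and 0.699% above and 2.10% below in EtOH-fed animals. miR-1224 was therefore among the few separated upward in 1 combination, and miR-361 among the few separated downward in 2. In each of these the gap to the nearest control was smaller than the counting error. The median difference over all miRNAs was between -0.03 and 0.04 in the 4 combinations.

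The difference in log2 CPM between the members in the same animal does not depend on how animals are scaled to each other. miR-1224 minus miR-361 had its highest group mean in CHO-fed AM21 animals at 24 h (3.00 ± 0.49), followed by EtOH-fed AM21 animals at 24 h (2.48 ± 0.34). Its lowest was in CHO-fed saline animals at 0 h (1.06 ± 0.77), and neighbouring groups overlapped at each of the 15 steps between. AM21 minus controls of this ratio was 0.49 (CHO) and 0.35 (EtOH) at 0 h. At 24 h it was 1.19 (CHO) and 0.68 (EtOH), with all 3 AM21 animals above all 6 controls in each diet. miR-361 alone separated the same animals at 24 h, so the ratio separated no further animals. Its gap to the nearest control was wider, from 2.33 to 2.44 in CHO-fed and from 2.07 to 2.22 in EtOH-fed animals. These gaps were still smaller than the counting error of each pair of animals. The size of the ratio difference follows from a selection of members with opposite differences.

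**Figure D2:**
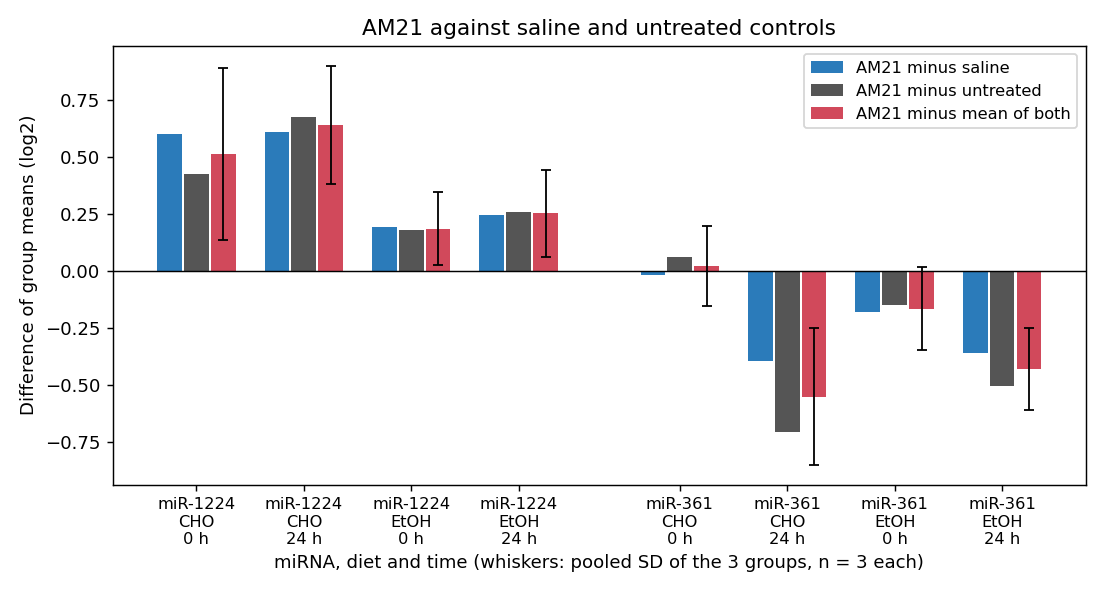
AM21 minus saline, minus untreated, and minus the mean of both (bars, log2 difference of group means, vertical axis) for miR-1224 and miR-361 in each diet and time, with whiskers for the pooled SD of the 3 groups (n = 3 each). miR-1224 is above 0 against either control in all 4 combinations, with its highest mean of 0.64 in CHO-fed animals at 24 h, and miR-361 is lowest there, at -0.55.

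The other miRNAs that the study set beside miR-21 give a scale for these differences. Averaged over the 4 combinations, AM21 minus controls was -7.15 for miR-21, -1.44 for miR-340-5p, 0.15 for miR-365, 0.25 for let-7a, and 0.38 for miR-146a. By this average miR-1224 (0.40) was close to miR-146a, and miR-361 (-0.28) was much nearer 0 than miR-340-5p. By diet, however, miR-1224 and miR-146a were unlike. At 0 and 24 h miR-1224 was 0.51 and 0.64 in CHO-fed and 0.19 and 0.25 in EtOH-fed animals. For miR-146a these values were 0.14 and 0.26 in CHO-fed and 0.57 and 0.53 in EtOH-fed animals.

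A search for bases shared with miR-21-5p was made after the values had been seen. The study describes the AM21 given to the rats as antisense to miR-21, without naming the strand. Bases 1 to 8 of miR-361-5p, which include its seed, are identical to bases 5 to 12 of miR-21-5p, shown in capitals in both.

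rno-miR-361-5p: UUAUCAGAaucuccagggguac

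rno-miR-21-5p: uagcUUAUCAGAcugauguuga

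A run of 8 was the longest found among 195 mature arms of the miRNAs in the table, for which the median was 4, and 3 arms reached it. The others were miR-340-5p (AGACUGAU) and miR-743b-5p (UCAGACUG), the latter listed in the table as miR-743b without an arm. AM21 minus controls was negative in all 4 combinations for miR-340-5p (-1.51 to -1.32) and for miR-743b (-0.40 to -0.21). Runs of 7 were found in miR-199a-5p (-0.66 to -0.34) and in the 5p arm of miR-499, listed without an arm (-0.18 to 0.34). Of the 5 miRNAs with a run of 7 or 8, 3 were below controls in all 4 combinations, as were 13.3% of the 143 miRNAs, and miR-361 was below them in 3, as 38.5% of the 143 were in at least 3. With so few miRNAs, grouped after their values were seen, this is a description only. The longest run that miR-1224 shares with miR-21-5p has 5 bases. Whether AM21 binds any of these miRNAs, or masks them from their probes, was not tested.

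The level of miR-1224 followed that of miR-122 from animal to animal, a relation also looked at after the values had been seen. After removal of group means, Pearson's r between the log2 CPM of miR-1224 and miR-122 was 0.944 and Spearman's rho was 0.925 over 48 animals. The two-sided permutation p, from 100000 permutations within groups, was 1e-05 for each, the smallest they can give. After Benjamini-Hochberg adjustment over all 142 miRNAs set against miR-122 it was 0.000284 for each, and 22 of the 142 had an adjusted p of r under 0.05. As the pair was picked after its values were seen, the relation stands as a hypothesis from these data. Without the animals farthest from the median of miR-122, 2 in number, r was 0.923. Within sets 1, 2, 3, and 4 of the animal numbering r was 0.883, 0.967, 0.940, and 0.954. Within untreated, saline, and AM21 animals it was 0.920, 0.982, and 0.924. Of the 142 other miRNAs, miR-1224 had the highest r with miR-122, with a slope of 0.962, and the only other above 0.9 was miR-675 (0.926). The median over all was 0.038, so the relation is not shared by the table at large. For miR-361 r was -0.406 (permutation p 0.00904, adjusted over the 142 to 0.0535) and rho was -0.387 (permutation p 0.0148, adjusted 0.0839), which missed the threshold, with r = -0.367 without the farthest animals, -0.248 under the scaling on the 100 highest probes, and -0.750, -0.469, -0.310, and -0.473 within the sets. Its r with the log2 total count within groups was of like size, -0.392, against -0.110 for miR-1224.

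The count of miR-1224 was 0.392% to 0.596% of the miR-122 count in every animal, with a median of 0.444%, while miR-122 itself took 42.1% to 68.8% of all counts. The pooled group SD of the log2 ratio of miR-1224 to miR-122 was 0.08, against 0.24 for miR-1224 and 0.24 for miR-122 taken alone. The ratio was thus steadier between animals of a group than either miRNA. This was not special to miR-1224, since over all 48 animals the SD of the log2 ratio to miR-122 was 0.13 for miR-1224, 0.11 for miR-675, 0.16 for miR-504, and 0.18 for miR-667. Across the untreated time course in CHO-fed animals miR-1224 differed from 0 h by 0.42, 0.40, and 0.49 at 6, 24, and 72 h, and miR-122 by 0.41, 0.47, and 0.51. Between the diets at 0 h, averaged over untreated, saline, and AM21 animals, the differences (EtOH minus CHO) were 0.35 and 0.43. The ratio moved by less than 0.1 in each of these comparisons.

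In 3 of the 4 combinations of diet and time, all 3 AM21 animals had a higher ratio than all 6 controls, and miR-1224 was the 1 miRNA of 142 for which the ratio to miR-122 did so in 3 or more. By combination, such ratios made up 0.704% (CHO, 0 h), 0.704% (CHO, 24 h), 0.704% (EtOH, 0 h), and 1.41% (EtOH, 24 h) of the 142. As miR-1224 was selected on its AM21 difference, this is a description. The miR-1224 count was 0.501%, 0.507%, and 0.596% of the miR-122 count in CHO-fed AM21 animals at 24 h, and 0.490%, 0.521%, and 0.540% in EtOH-fed AM21 animals at 24 h. It was 0.543%, 0.534%, and 0.483% in CHO-fed AM21 animals at 0 h, and 0.434%, 0.459%, and 0.444% in EtOH-fed AM21 animals at 0 h. No control animal was above 0.480%, so 9 of the 12 AM21 animals exceeded every one of the 36 controls. Of the 142 miRNAs only 1, miR-1224 itself, had at least as many, and the median was 0. The lowest of the 9 (0.4834%) cleared the highest control (0.480%) by less than the counting error of miR-1224 in these animals (SD 0.0678 and 0.0924). Within CHO-fed animals the gaps at 0 h (0.4834% against 0.4722%) and 24 h (0.5005% against 0.473%) were also smaller than the counting error of the pair. AM21 minus controls of the log2 ratio was 0.24 in CHO-fed animals at 0 h, 0.32 in CHO-fed animals at 24 h, 0.02 in EtOH-fed animals at 0 h, and 0.32 in EtOH-fed animals at 24 h. For miR-122 alone it was 0.27, 0.32, 0.16, and -0.07 in the same order. In CHO-fed animals at 24 h, 0.32 of the 0.64 was therefore shared with miR-122, whereas in EtOH-fed animals at 24 h none of it was. The longest run of bases that miR-1224 shares with miR-122-5p is 5, against a median of 4 over 196 arms, and whether the probe of miR-1224 also counts some miR-122 was not tested.

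**Figure D3:**
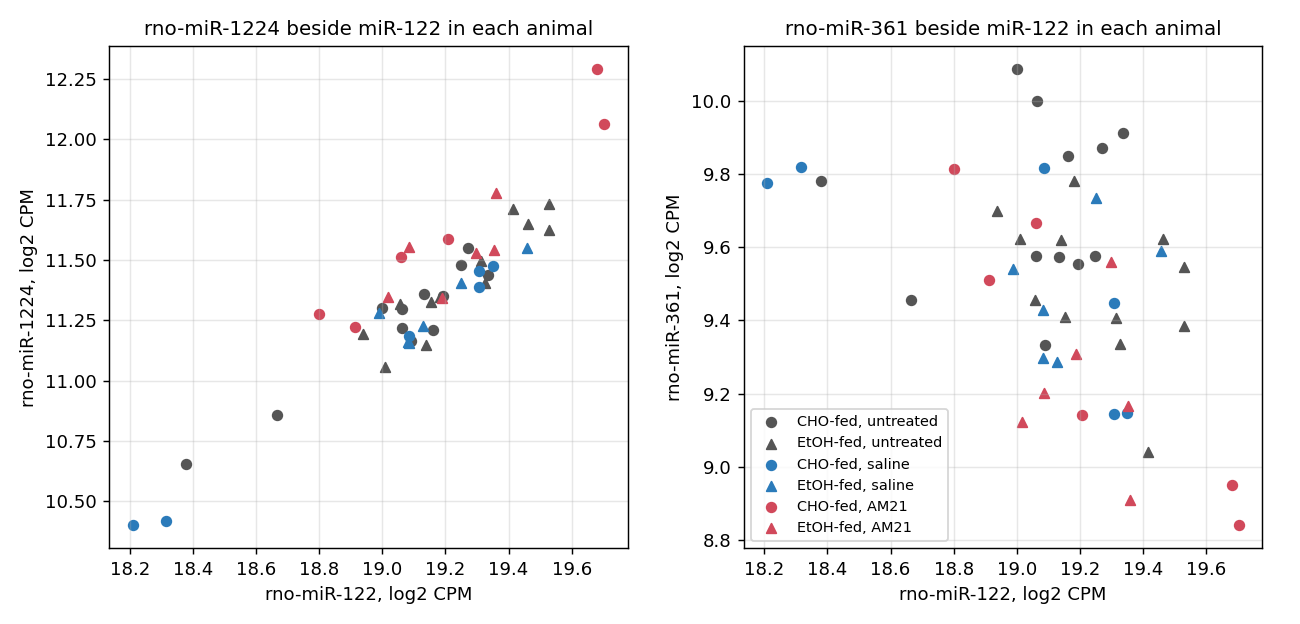
Level of miR-1224 (left) and of miR-361 (right) (log2 CPM, vertical axes) against that of miR-122 (log2 CPM, horizontal axes) in the 48 animals, with colours for treatment, circles for CHO-fed, and triangles for EtOH-fed animals. Within groups r with miR-122 is 0.944 for miR-1224 and -0.406 for miR-361, and most AM21 animals lie above the control animals of like miR-122 in the left panel.

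Comparisons other than AM21 against its controls were tested with limma, which fits 1 mean per group with a spread shared over groups. Adjustment followed Benjamini and Hochberg over all 143 miRNAs, and a miRNA was called at an adjusted p under 0.05. P-values here measure the spread between animals. In CHO-fed untreated animals the call rate over all 143 miRNAs was 2.10% at 6 h, 1.40% at 24 h, and 18.2% at 72 h against 0 h, and in EtOH-fed untreated animals it was 11.2%, 1.40%, and 18.2%. With the set number as a replicate block, 13.3% were called in CHO-fed animals at 24 h. The animals at 6 and 72 h carry another set number than those at 0 and 24 h, so time and set cannot be told apart there. Neither member was called in any of these comparisons.

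miR-1224 in CHO-fed untreated animals was 0.42 (SE 0.18, adjusted p = 0.154) above 0 h at 6 h, 0.40 (adjusted p = 0.169) at 24 h, and 0.49 (adjusted p = 0.0566) at 72 h. The 72 h difference missed the threshold narrowly. It passed with voom weights (0.51, adjusted p = 0.0358) and without CHO-fed untreated replicate 2 of 0 h (0.65, adjusted p = 0.0168), the highest of the 0 h animals, without which the 6 h difference passed as well (0.58, adjusted p = 0.0279). Over all alternatives the adjusted p of the 72 h difference ran from 0.0168 to 0.203, and that of the 6 h difference from 0.0279 to 0.544. In EtOH-fed untreated animals the differences of miR-1224 were 0.26 at 6 h (adjusted p = 0.344), 0.01 at 24 h (adjusted p = 0.976), and 0.24 at 72 h (adjusted p = 0.347). The differences of miR-361 were 0.13, 0.08, and 0.22 in CHO-fed and -0.12, 0.08, and 0.03 in EtOH-fed untreated animals (SE 0.20), with adjusted p between 0.421 and 0.947. At 24 h in CHO-fed animals its 95% confidence interval was -0.33 to 0.49.

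Whether the time course differs between the diets was tested as an interaction, EtOH minus CHO. For miR-1224 it was -0.17 at 6 h, -0.39 at 24 h, and -0.25 at 72 h (SE 0.26, adjusted p from 0.854 to 0.988). For miR-361 it was -0.25, 0.01, and -0.19 (SE 0.28, adjusted p from 0.973 to 0.994). At each of the 3 times limma called 0% of miRNAs, and an unadjusted p under 0.05 was reached by 3 (6 h), 9 (24 h), and 8 (72 h). The F test over the 3 times called 0% (8 unadjusted). A fit of the 24 h interaction on 36 animals, averaged over untreated, saline, and AM21 animals, was added after seeing the data. It gave -0.52 for miR-1224 (SE 0.18, adjusted p = 0.195) and 0.22 for miR-361 (SE 0.15, adjusted p = 0.529), and called 0% (17 unadjusted). This fit includes the AM21 animals on which the members were selected, and limma's adjusted p takes no account of that. No difference between the diets in the time course of either member was thus detected in these tests.

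Untreated EtOH-fed minus CHO-fed animals differed by 0.21 at 6 h and 0.13 at 72 h for miR-1224 (SE 0.18, adjusted p = 0.783 and 0.827). For miR-361 the differences were -0.36 and -0.30 (SE 0.20, adjusted p = 0.653 and 0.640). In both comparisons limma called 0% of miRNAs, and an unadjusted p under 0.05 was reached by 13 (6 h) and 14 (72 h). Averaged over untreated, saline, and AM21 animals, EtOH minus CHO at 0 h was 0.35 for miR-1224 (SE 0.12, adjusted p = 0.0525) and -0.20 for miR-361 (SE 0.11, adjusted p = 0.222), where 14.7% of miRNAs were called. The miR-361 difference ran from -0.27 to -0.08 over all alternatives, with limma's adjusted p from 0.122 to 0.770. The miR-1224 difference narrowly missed the threshold, with a 95% confidence interval of 0.10 to 0.61. It was called with RLE size factors (0.37, adjusted p = 0.0292), with voom weights (0.36, adjusted p = 0.0390), with depth as a covariate (0.48, adjusted p = 0.0283), and without any 1 of 3 animals of 0 h. These were CHO-fed saline replicate 3 (0.46, adjusted p = 0.00242), CHO-fed untreated replicate 2 (0.40, adjusted p = 0.0226), and EtOH-fed untreated replicate 1 (0.39, adjusted p = 0.0399). Over all alternatives its adjusted p ran from 0.00242 to 0.186, and without both EtOH-fed saline animals of low miR-21 it was 0.31 (adjusted p = 0.186). miR-122 was called in the same comparison (0.43, adjusted p = 0.0130). At 24 h EtOH minus CHO was -0.16 for miR-1224 (adjusted p = 0.541) and 0.02 for miR-361 (adjusted p = 0.949), and 1.40% of miRNAs were called. The averages at 0 and 24 h include the AM21 animals on which the members were selected, and limma's adjusted p takes no account of that. At 24 h the EtOH-fed and CHO-fed means of miR-1224 were 11.30 and 11.31 (untreated), 11.31 and 11.37 (saline), and 11.56 and 11.98 (AM21). At 0 h they were 11.29 and 10.91, 11.28 and 10.74, and 11.47 and 11.34.

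Saline and untreated animals, which together form the controls of AM21, differed by -0.03 in miR-1224 (SE 0.11) and by -0.09 in miR-361 (SE 0.09), averaged over diets and times, with an adjusted p of 0.971 for each. Of all miRNAs 1.40% were called. The 95% confidence intervals were -0.25 to 0.19 for miR-1224 and -0.28 to 0.10 for miR-361 on average over diets and times. Within CHO-fed animals at 24 h the group mean of miR-361 was 9.37 in saline and 9.68 in untreated animals, so the average does not speak for each combination.

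From 0 to 24 h, averaged over diets, the difference of miR-361 in AM21 animals was -0.48 on the log2 scale (SE 0.13). As the second dose of AM21 was given after PHx, time after PHx and that dose cannot be told apart in it. The members were selected on values of the same animals, so limma's adjusted p (0.0139) takes no account of that selection, and the difference is given as a description and not as a call. All 3 CHO-fed AM21 animals at 24 h lay below all 3 at 0 h, as for 13.29% of the miRNAs. In EtOH-fed animals 2 of 3 did so, where 30.8% of the miRNAs had at least 2 and 12.59% had all 3, so such a separation was common. Without EtOH-fed AM21 replicate 2 of 0 h it was -0.42 (adjusted p = 0.0609), and the adjusted p over all alternatives ran from 0.00676 to 0.0609. In saline animals the difference of miR-361 from 0 to 24 h was -0.20 (SE 0.13, adjusted p = 0.282), at -0.31 to -0.14 when 1 animal was left out and -0.09 without both EtOH-fed animals of low miR-21, and whether it differs between AM21 and saline animals was not tested. By diet, 24 h minus 0 h of miR-361 was 0.08, -0.31, and -0.69 in CHO-fed and 0.08, -0.09, and -0.27 in EtOH-fed untreated, saline, and AM21 animals.

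For miR-1224, 24 h minus 0 h was 0.33 in saline animals (SE 0.15, adjusted p = 0.119) and 0.37 in AM21 animals (SE 0.15, adjusted p = 0.1003). The latter has the same limits from the selection and the second dose. The saline difference passed without CHO-fed saline replicate 3 of 0 h (0.50, adjusted p = 0.0128, highest over all alternatives 0.278). Without CHO-fed AM21 replicate 2 of 24 h the AM21 difference was 0.46 (adjusted p = 0.0424, highest 0.237). By diet, 24 h minus 0 h of miR-1224 was 0.40, 0.64, and 0.64 in CHO-fed and 0.01, 0.03, and 0.09 in EtOH-fed untreated, saline, and AM21 animals. The values thus lay closer between treatments of a diet than between the diets, although the interaction of diet and time was not called. The call rate over all miRNAs was 9.79% in saline and 13.99% in AM21 animals.

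Over the 16 group means, the miRNAs most like miR-1224 by Pearson's r were miR-122 (0.909), miR-337 (0.884), and miR-675 (0.876), and the least like were miR-27a (-0.813), miR-3593-3p (-0.766), and miR-26a (-0.715). Over the 12 groups without AM21 these values were 0.974, 0.946, and 0.979, and -0.943, -0.715, and -0.762. The likeness therefore does not rest on the AM21 groups. The miRNAs most like miR-361 were miR-26a (0.705), miR-99b (0.598), and miR-21 (0.583), and the least like were miR-1224 (-0.655), miR-378 (-0.621), and miR-30e (-0.610). The value for miR-21 was 0.010 over the 12 groups without AM21, and that for miR-1224 was -0.312. Likeness of miR-361 to miR-21 over all groups was thus set by the AM21 animals. An r above 0.8 was reached by 6 miRNAs for miR-1224 and by 0 for miR-361. Of the miRNAs like or unlike miR-1224, limma called miR-337 (0.60, adjusted p = 0.0261) and miR-27a in CHO-fed untreated animals at 72 h. It called miR-122 and miR-27a for diet at 0 h, and miR-26a and miR-3593-3p from 0 to 24 h in AM21 animals. Over all miRNAs the call rates in these comparisons were 18.18%, 14.69%, and 13.99%, and the other comparisons called none of the miRNAs like or unlike miR-1224. As they were picked by r over the same group means that limma compares, their calls are a description.

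Summed CPM of marker miRNAs was followed for cell types of the liver, since each sample is whole tissue, and r is given as a description without a p. Fewer cells of a type and less RNA per cell cannot be told apart in such data. The hepatocyte list (miR-122, miR-192, and miR-194) had a within-group r of 0.941 with miR-1224 and -0.421 with miR-361. Its sum was nearly all miR-122, and miR-192 (-0.330) and miR-194 (-0.304) did not follow miR-122 within groups. The r of miR-1224 with this list thus rested on miR-122, and its r with miR-192 or miR-194 is not given here. The red blood cell list (miR-451 and miR-144) had an r of -0.085 with miR-1224 and -0.223 with miR-361, and the leukocyte list (3 of 4 in the table, led by miR-142-3p) had 0.008 and -0.178. The mesenchymal list (4 of 5 in the table, led by miR-145) had -0.367 and -0.032, and the endothelial marker miR-126 had -0.278 and -0.091. None of the red blood cell, leukocyte, mesenchymal, and endothelial lists came near the relation of miR-1224 with miR-122. AM21 minus controls at 24 h was 0.31 (CHO) and -0.06 (EtOH) for the hepatocyte, -0.35 and -1.03 for the red blood cell, 0.24 and 0.05 for the leukocyte, -0.20 and 0.13 for the mesenchymal, and 0.06 and 0.31 for the endothelial sum. At 0 h it was 0.26 (CHO) and 0.15 (EtOH) for the hepatocyte, 0.33 and -0.59 for the red blood cell, 0.05 and -0.11 for the leukocyte, -0.33 and -0.20 for the mesenchymal, and 0.20 and 0.21 for the endothelial sum. Only the endothelial sum thus had 1 sign in all 4 combinations, and none of these differences was tested. The sign of the red blood cell sum in CHO-fed animals at 0 h hung on 1 animal. In CHO-fed AM21 animals at 0 h the log2 red blood cell sum was 10.14, 12.54, and 10.42. The control means were 10.85 (untreated) and 10.57 (saline), so only 1 AM21 animal lay above them. In EtOH-fed animals at 24 h the mean red blood cell sum was 10.11 (AM21), 10.35 (saline), and 11.94 (untreated). The -1.03 there thus lay mostly against the untreated animals. For the endothelial sum in CHO-fed animals at 24 h, 0.06 was less than the SD of the AM21 animals (0.15).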

How the data were processed

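Liver miRNAs of 48 rats were measured with the NanoString nCounter assay. The authors deposited log2 CPM for 143 miRNAs, made from counts by TMM scaling and voom, and per the labels limma was among their tools. Counts were recovered from the deposited log2 CPM and the 0.5 that voom adds, and 6864 of 6864 were within 0.001 of a whole number. No count model was run on them.

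Tests used limma 3.58.1 (R 4.3.3): lmFit with 1 mean per group on the log2 CPM as deposited, then eBayes. Time course, interaction, and diet at 6 and 72 h used the 24 untreated animals, and the other tests used the 36 animals at 0 and 24 h. All 143 miRNAs were kept, with Benjamini-Hochberg adjustment within each comparison and a threshold of 0.05. Descriptions and figures used Python 3.11.15, numpy 2.4.6, pandas 2.3.3, and matplotlib 3.10.9, and the steps were tested on simulated data.

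The members and lists were chosen with earlier results of these data known. Besides the members, the miRNAs named were miR-21 and those the study set beside it, the 3 most and 3 least like each member over group means, cell type markers, and miRNAs sharing a seed. The relation with miR-122, the runs shared with miR-21-5p, the 24 h interaction over 36 animals, and the omission of both EtOH-fed saline animals of low miR-21 were added after seeing the data. miR-743b, miR-499, miR-504, and miR-667 were also chosen after their values were seen.

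The titles number animals in sets 1 to 3 (0 and 24 h) and 4 (6 and 72 h), and what a set means is not given in the sources used here. After removal of group means, same-numbered animals correlated above 0.1 in all 3 pairs in 4 of 16 pairs of groups, namely CHO-fed untreated at 0 and 24 h (0.115, 0.301, and 0.282), EtOH-fed saline at 0 and 24 h (0.417, 0.110, and 0.335), both diets untreated at 0 h (0.516, 0.793, and 0.654), and both diets with saline at 24 h (0.237, 0.204, and 0.198). The first covers a whole comparison, whose blocked count is given beside the result, and the others cover parts of averaged ones.

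The alternatives tried were size factors by RLE, a scaling on the 100 probes with the highest mean (their geometric mean), 5 counts added before the log, at least 50 counts in at least 3 animals (131 and 135 miRNAs), voom weights, set number as a replicate block, fits on the groups compared only, log10 total count as a covariate, other controls, and omission of each animal in turn.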

Additional observations from a re-analysis of the deposited data

How the results depend on the processing

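Of 758 alternatives to 42 values of the members, 705 kept the direction and, where tested, the side of the threshold. AM21 minus controls of miR-361 in CHO-fed animals at 0 h changed sign in 4, between -0.054 and 0.098, by less than the SD between animals. All 4 AM21 differences of miR-1224 stayed above 0, between 0.13 and 0.84, and those of miR-361 at 24 h stayed below 0, between -0.71 and -0.35. With RLE size factors the sign turned for miR-1224 in EtOH-fed untreated animals at 24 h (-0.044), and for miR-361 at 72 h in that diet (-0.050) and in the 24 h interaction (-0.044). With the 100 highest probes it turned for miR-361 in untreated animals at 24 h in CHO-fed (-0.0085) and at 6 h in EtOH-fed animals (0.010), for miR-361 between diets at 24 h (-0.018), and for miR-1224 in EtOH-fed untreated animals at 24 h (-0.0042). With depth as a covariate it turned for miR-361 in the 24 h interaction (-0.065) and for miR-1224 between saline and untreated animals (0.033). Calls of miR-1224 were gained with voom weights at 72 h in CHO-fed animals (0.51) and, for diet at 0 h, with RLE (0.37), voom weights (0.36), and depth (0.48). The cause was not tested. Scaling moved the median of all miRNAs in single animals by -0.09 to 0.10 (RLE), -0.14 to 0.19 (100 highest probes), and 0.05 to 0.17 (5 counts added). For miR-361 in CHO-fed untreated animals, alternatives that kept every animal gave -0.0085 to 0.20 (24 h) and 0.14 to 0.45 (72 h) against 0 h. In EtOH-fed untreated animals they gave 0.03 to 0.14 (24 h) and -0.050 to 0.17 (72 h).

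Leaving out each animal in turn gave, for miR-1224, 0.30 to 0.58 at 6 h and 0.36 to 0.65 at 72 h in CHO-fed, 0.14 to 0.43 (6 h), -0.11 to 0.11 (24 h), and 0.13 to 0.34 (72 h) in EtOH-fed animals, -0.32 to 0.0072 (6 h) and -0.40 to -0.12 (72 h) for the interaction, 0.30 to 0.46 (0 h), 0.12 to 0.39 (6 h), and 0.071 to 0.23 (72 h) for diet, -0.11 to 0.015 for saline minus untreated, and 0.25 to 0.50 (saline) and 0.29 to 0.46 (AM21) from 0 to 24 h. For miR-361 it gave -0.041 to 0.23 at 6 h, -0.014 to 0.26 at 24 h and 0.14 to 0.35 at 72 h in CHO-fed, -0.28 to 0.047 (6 h), -0.017 to 0.21 (24 h), and -0.016 to 0.096 (72 h) in EtOH-fed animals, -0.42 to -0.079 (6 h), -0.17 to 0.13 (24 h), and -0.32 to -0.11 (72 h) for the interaction, -0.53 to -0.19 (6 h) and -0.038 to 0.095 (24 h) for diet, -0.14 to -0.059 for saline minus untreated, and -0.52 to -0.42 from 0 to 24 h in AM21 animals. The 2 animals then left in a group were assumed to vary like the other groups. Counts of called miRNAs over all alternatives ran, in CHO-fed untreated animals, from 0 to 46 (6 h, 3 as fitted), 0 to 19 (24 h, 2), and 5 to 34 (72 h, 26), and in EtOH-fed ones from 0 to 42 (6 h, 16), 0 to 6 (24 h, 2), and 17 to 32 (72 h, 26). They ran from 12 to 27 (diet at 0 h, 21), 0 to 7 (diet at 24 h, 2), 0 to 2 (saline minus untreated, 2), 3 to 26 (24 h in saline, 14), and 11 to 29 (24 h in AM21, 20), from 0 to 1 for the interactions at 24 and 72 h, their F test, and diet at 6 h, and from 0 to 2 for diet at 72 h (0 as fitted).

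With set number as a replicate block, the differences were as fitted (0.40 for miR-1224 and 0.08 for miR-361 at 24 h in CHO-fed untreated animals), and the block changed no call of a member. The block moved the called miRNAs from 2 to 19 at 24 h in CHO-fed and from 2 to 6 in EtOH-fed untreated animals, from 14 to 24 (saline) and 20 to 26 (AM21) from 0 to 24 h, and from 2 to 4 for diet at 24 h. Without both EtOH-fed saline animals of low miR-21, an omission chosen after seeing the data, saline differed from 0 to 24 h by 0.40 in miR-1224 and -0.09 in miR-361, with 3 miRNAs called, saline minus untreated was -0.06 and -0.14, with 0 called, and AM21 minus controls at 0 h in EtOH-fed animals was 0.25 and -0.05. Diet at 0 h was then 0.31 and -0.27, with 12 called.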
